A study of Mus musculus with 6 samples.

Results

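The 10 genes described here encode the chains of major histocompatibility complex (MHC) class I molecules and the proteins that load them with peptide. They were taken by symbol from the deposited expression matrix, which holds 11452 genes, and all 10 were present: the heavy chain genes H2-K1, H2-D1, H2-Q7, H2-T23 and H2-M3, the light chain gene B2m, the peptide transporter genes Tap1 and Tap2, the chaperone gene Tapbp and the activator gene Nlrc5. The matrix comes from RNA sequencing of 4T1 cells, a mouse mammary tumour line, as pools that were knockout (KO) or wild type (WT) for myosin 1e, with 3 libraries per genotype. Its columns carry the numbers 1, 2 and 4 in each genotype, and libraries are named here by genotype and number, as KO 4 or WT 4. Values are log2 CPM, read counts per gene that the authors scaled by a factor for each library. The sample titles name pools 1, 2 and 3 of each genotype, the series' design text calls them biological replicates, and no treatment is given for either genotype. The knockout method, its allele and the number of clones in a pool were taken as unknown (not given in the sources used here).

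MHC class I molecules are present on nearly all nucleated cells. A polymorphic heavy chain pairs with beta-2-microglobulin, and the pair holds a short peptide that was cut from cytosolic proteins by the proteasome and pumped into the endoplasmic reticulum by the transporter TAP. Cytotoxic T cells read the displayed peptides, and natural killer cells respond when class I is missing. Transcription of these genes is induced by interferons and NF-kappaB and is driven by NLRC5, which docks on a conserved promoter module. The 4T1 line comes from a BALB/c mouse, whose H-2d alleles differ from the H-2b alleles of the C57BL/6J reference genome, so reads of the heavy chain genes were placed on a reference of another haplotype.

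Of the 10 genes, 8 lie on chromosome 17, where H2-K1, Tapbp, Tap1 and Tap2 sit close together, while B2m is on chromosome 2 and Nlrc5 on chromosome 8. RefSeq promoter windows (build GRCm38.p6, 250 bases before to 50 after the start) were found for 8 of the 10, and none for Tap2 and Nlrc5. The windows of 5 genes are printed below to show the module that class I heavy chains and B2m share, beside Tap1 and H2-T23, whose differences between library numbers were the largest of the genes that have a window. All are written 5′ to 3′ on the gene's strand. Capitals mark letter matches, on either strand, to an interferon-stimulated response element (ISRE, GAAA followed after 2 bases by GAAA) or a shortened form of it (GAA followed after 2 bases by GAAA), an X2 site (TGACG), a Y box (CCAAT) and a kappaB motif (GGG, any 2 bases, T, any 1 base, CCC). The full ISRE does not contain the shortened form, and overlapping matches are merged in the capitals.
H2-K1, chr17:34000298-34000597, minus strand: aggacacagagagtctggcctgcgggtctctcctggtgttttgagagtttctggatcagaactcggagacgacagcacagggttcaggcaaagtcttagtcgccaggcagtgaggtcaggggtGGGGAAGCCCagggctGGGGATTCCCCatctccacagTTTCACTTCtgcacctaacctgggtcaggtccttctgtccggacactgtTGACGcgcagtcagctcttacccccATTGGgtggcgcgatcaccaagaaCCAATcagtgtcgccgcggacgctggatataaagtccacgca
H2-D1, chr17:35262844-35263143, plus strand: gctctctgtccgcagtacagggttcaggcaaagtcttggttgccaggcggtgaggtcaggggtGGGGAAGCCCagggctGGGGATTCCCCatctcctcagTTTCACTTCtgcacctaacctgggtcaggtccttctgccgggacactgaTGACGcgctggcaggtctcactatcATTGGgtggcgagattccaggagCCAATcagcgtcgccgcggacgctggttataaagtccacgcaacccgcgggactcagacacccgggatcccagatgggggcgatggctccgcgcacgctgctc
B2m, chr2:122147437-122147736, plus strand: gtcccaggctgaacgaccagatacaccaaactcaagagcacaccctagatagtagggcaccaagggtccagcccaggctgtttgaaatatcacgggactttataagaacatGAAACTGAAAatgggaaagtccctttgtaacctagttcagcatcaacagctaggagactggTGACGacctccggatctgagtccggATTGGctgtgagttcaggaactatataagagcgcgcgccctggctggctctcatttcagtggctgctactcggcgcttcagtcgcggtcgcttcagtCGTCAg
H2-T23, chr17:36032652-36032951, minus strand: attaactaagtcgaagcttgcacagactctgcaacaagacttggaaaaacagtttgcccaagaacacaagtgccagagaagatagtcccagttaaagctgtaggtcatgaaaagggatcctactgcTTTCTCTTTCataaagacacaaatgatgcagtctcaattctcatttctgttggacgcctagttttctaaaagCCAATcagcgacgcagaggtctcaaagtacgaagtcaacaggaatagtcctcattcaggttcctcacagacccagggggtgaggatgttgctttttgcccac
Tap1, chr17:34187306-34187605, plus strand: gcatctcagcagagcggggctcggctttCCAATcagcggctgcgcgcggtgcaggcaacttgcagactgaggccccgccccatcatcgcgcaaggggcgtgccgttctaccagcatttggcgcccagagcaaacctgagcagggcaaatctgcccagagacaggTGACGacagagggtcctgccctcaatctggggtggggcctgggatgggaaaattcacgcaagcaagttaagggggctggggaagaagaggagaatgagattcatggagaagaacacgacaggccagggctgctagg

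In the windows of H2-K1, H2-D1, H2-Q7, H2-M3 and B2m the X2 site TGACG was followed on the same strand by ATTGG, and the 2 started 24 bases apart in H2-Q7 and 25 bases apart in the other 4 genes. This spaced pair stood in 5 of the 8 members with a window and in 0.131% of all 32851 promoter windows, a spacing that was noticed in these windows and then counted. Alone, the Y box was in 37.4% of all windows, the X2 site in 20.8%, the shortened ISRE in 7.52%, the kappaB motif in 5.02% and the full ISRE in 3.44%. H2-K1, H2-D1 and H2-Q7 also held the kappaB motif and the shortened ISRE, in the same order, and the motif map shows this alignment. The 3 kappaB matches of H2-K1 and of H2-D1 include a pair that starts 1 base apart. The Tap1 window overlaps that of Psmb9, a proteasome subunit gene read in the opposite direction, over 275 bases. A letter match is a description of the sequence only.

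**Figure D1:**
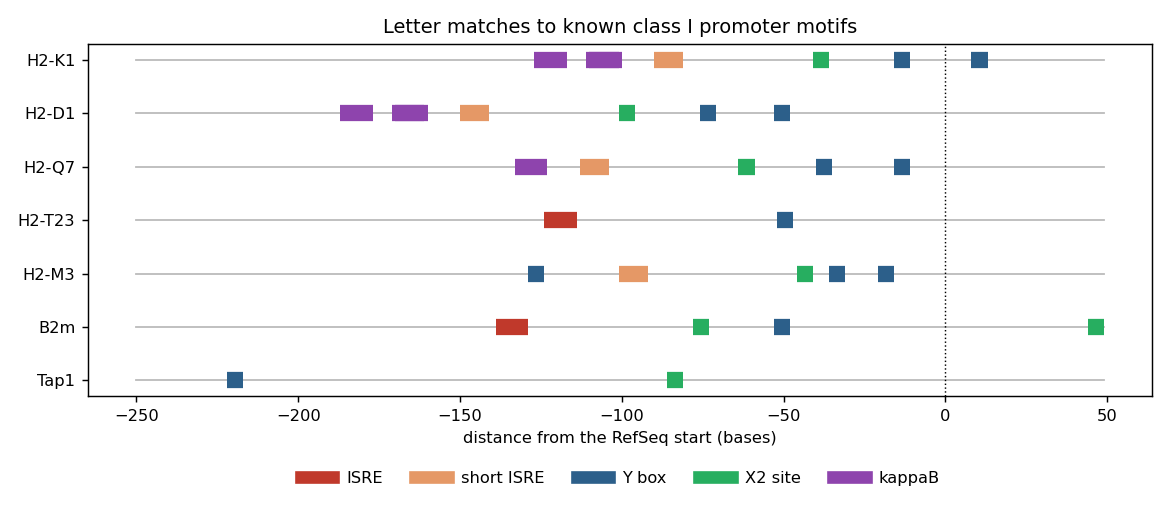
Letter matches to 5 motifs in the promoter windows of 7 of the members, plotted by distance in bases from the RefSeq start (dotted line at 0). In H2-K1, H2-D1, H2-Q7, H2-M3 and B2m an X2 site lies 24 or 25 bases before a Y box.

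Because the heavy chain genes are copies of each other, some of their reads cannot be assigned to 1 gene. Between the coding sequences of the reference, H2-K1 and H2-D1 were identical at 91.5% of 1077 aligned bases, H2-D1 and H2-Q7 at 89.8%, and H2-M3 and H2-K1 at 72.9%. The longest stretch of coding sequence that H2-K1 and H2-D1 share without a difference is 91 bases in exon 4 of both genes, and it is printed to show what a read from either could look like (GENCODE M21, GRCm38; chr17:33997343-33997433 on the minus strand in H2-K1 and chr17:35265911-35266001 on the plus strand in H2-D1).
H2-K1 and H2-D1, exon 4: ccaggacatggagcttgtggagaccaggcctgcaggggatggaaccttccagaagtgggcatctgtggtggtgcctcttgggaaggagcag
Of all 100-base windows of the coding sequence, 29.1% in H2-Q7, 9.02% in H2-D1 and 5.25% in H2-T23 also occur in another class I heavy chain transcript, and 0% in H2-K1 and H2-M3. H2-Q7 shared the most with H2-Q6, at 18.4% of its windows. With 50-base windows the shares were 51.1% for H2-Q7, 28.7% for H2-T23, 23.5% for H2-D1, 12.9% for H2-K1 and 0.834% for H2-M3. For B2m, Tap1, Tap2, Tapbp and Nlrc5, which are not heavy chain genes, the share was 0% at both window sizes. Windows were compared with class I heavy chain transcripts only, so this does not show that reads of these genes were unique. All these identities and shares describe the reference alleles, and those of the H-2d alleles in 4T1 cells were not computed. Read length and the handling of reads with several matches had no source (not given in the sources used here), and H2-Q7 had the largest shared part of the heavy chains.

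The deposited genes summed to 17772003 to 19988206 reads per library, recovered as whole numbers from the deposited values. The 10 genes together took 0.110% to 0.255% of these reads. Myo1e itself was at 6.87, 6.81 and 6.81 log2 CPM in KO 1, KO 2 and KO 4, against 7.09, 7.02 and 6.91 in WT 1, WT 2 and WT 4, a difference of -0.18 (SE 0.09, limma adjusted p = 0.9999). Its RNA was thus present in the KO libraries, and its level alone does not check the KO labels. Of 10 epithelial markers 9 were in the matrix, with summed levels of 3561 to 4529 CPM in KO and 3862 to 5236 CPM in WT libraries. Of 20 leukocyte markers only Cd68 had a row, at 4.51 to 7.88 CPM in KO and 3.98 to 6.99 CPM in WT libraries, and the defining leukocyte gene Ptprc had none. Fibroblast markers had a row for 3 of 12 (Pdgfra, Postn and Gsn), with summed levels of 236 to 243 CPM in KO and 246 to 289 CPM in WT libraries, and endothelial markers for 1 of 8 (Egfl7), at 6.23 to 8.21 CPM in KO and 6.26 to 7.32 CPM in WT libraries. The part of these markers in the class I values was not tested. In bulk samples, fewer cells of a type and less RNA per cell cannot be told apart.

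Levels were first compared per kilobase of merged exon, with the SD of the 3 libraries in each genotype. B2m was the highest, at 484 ± 73.3 CPM per kilobase in KO and 592 ± 145 in WT libraries. The classical heavy chains described here followed, H2-D1 at 175 ± 63.2 in KO and 222 ± 95.0 in WT, and H2-K1 at 94.7 ± 29.5 in KO and 120.2 ± 42.9 in WT. Tapbp was next at 46.6 ± 8.58 in KO and 58.2 ± 17.5 in WT libraries. B2m, H2-D1, H2-K1, Tapbp and Tap2 kept this order in 6 of 6 libraries. Tap2 was at 13.8 ± 11.4 CPM per kilobase in KO and 15.9 ± 9.12 in WT, and H2-T23 and H2-M3 followed at 8.05 ± 5.98 and 7.80 ± 3.42 in KO, and 10.2 ± 7.21 and 8.33 ± 2.49 in WT. Those 2 traded places between libraries, with H2-T23 above H2-M3 in 3 of 6. Nlrc5, Tap1 and H2-Q7 were the lowest, with means of 2.81, 2.23 and 1.79 CPM per kilobase in KO and 3.15, 2.99 and 2.50 in WT libraries. They too changed order among the libraries. The order depends on the length used, and H2-Q7 has 4265 bases of merged exon beside a coding sequence of 1002 bases. Its reads may also be shared with other heavy chains, as described above.

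All 10 genes had lower mean levels in KO than in WT libraries, with differences between -0.14 for H2-M3 and -0.50 for Tap1 on the log2 scale, and none passed the test of KO against WT. The mean of each gene was also higher in the libraries numbered 4 than in those numbered 1 and 2, by more than the difference between KO and WT. KO and WT libraries were first compared for the 2 classical heavy chains, which present peptides to cytotoxic T cells. H2-K1 (GRCm38 chromosome 17, 33996017 to 34000347, minus strand) was at 7.91, 7.76 and 8.56 log2 CPM in KO 1, KO 2 and KO 4, against 8.33, 7.94 and 8.94 in WT 1, WT 2 and WT 4. H2-D1 (chromosome 17, 35262730 to 35267499, plus strand) was at 8.57, 8.39 and 9.32 log2 CPM in KO 1, KO 2 and KO 4, against 8.92, 8.58 and 9.73 in WT 1, WT 2 and WT 4. For both genes KO 1 and KO 2 lay below WT 1 and WT 2, and KO 4 lay below WT 4, while KO 4 was above WT 1 and WT 2, so the 3 libraries of each genotype overlapped. The mean difference was -0.33 (SE 0.32) for H2-K1 and -0.32 (SE 0.37) for H2-D1, KO levels 0.797 and 0.800 times those of WT, and neither passed limma's test (adjusted p = 0.9999 each). Within the numbers 1, 2 and 4, KO minus WT was -0.42, -0.18 and -0.38 for H2-K1 and -0.36, -0.19 and -0.42 for H2-D1. Each of these differences was more than 2 times its counting error, the SE that its number of reads alone gives.

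H2-Q7, H2-T23 and H2-M3 are genes of non-classical heavy chains. H2-Q7, a Qa-2 gene (chromosome 17, 35439155 to 35443773, plus strand), was at 2.83, 2.61 and 3.31 log2 CPM in KO 1, KO 2 and KO 4, against 3.32, 3.17 and 3.72 in WT 1, WT 2 and WT 4. Its differences were -0.49, -0.55 and -0.41 within the numbers 1, 2 and 4, and its counts of 105 to 245 reads per library gave them counting errors of 0.16, 0.18 and 0.14. The mean difference of -0.48 (SE 0.24) did not pass limma's test (adjusted p = 0.9999). H2-T23 (chromosome 17, 36029773 to 36032855, minus strand) encodes Qa-1, a ligand of inhibitory receptors on natural killer cells, and was at 3.79, 3.68 and 5.43 log2 CPM in KO 1, KO 2 and KO 4, against 4.58, 3.58 and 5.71 in WT 1, WT 2 and WT 4. WT 1 stood 1.00 above WT 2, and KO minus WT within the numbers was -0.78, 0.10 and -0.28, not of one sign. The mean difference was -0.32 (SE 0.68, limma adjusted p = 0.9999). H2-M3 (chromosome 17, 37270220 to 37274484, plus strand) presents formylated peptides and was at 3.04, 3.11 and 4.08 log2 CPM in KO 1, KO 2 and KO 4, against 3.39, 3.25 and 4.01 in WT 1, WT 2 and WT 4. Its KO 4 value was the highest of all 6, and of its 3 differences only the one within number 1, at -0.34, exceeded 2 times its counting error. The mean difference was -0.14 (SE 0.35, limma adjusted p = 0.9999).

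The sum of the 5 heavy chain genes does not depend on how reads were split among these 5. It was at 9.34, 9.18 and 10.08 log2 CPM in KO 1, KO 2 and KO 4, against 9.73, 9.37 and 10.47 in WT 1, WT 2 and WT 4. KO minus WT was -0.32 on average and -0.39, -0.19 and -0.39 within the numbers 1, 2 and 4. Without KO 4 the average was -0.60, and without WT 4 it was -0.02. A two-sided exact permutation test of 3 against 3 libraries gave p = 0.5, where the smallest p such a design can give is 0.1. The log2 ratio of H2-D1 to H2-K1 within a library was 0.66, 0.63 and 0.75 in KO 1, KO 2 and KO 4, against 0.60, 0.64 and 0.79 in WT 1, WT 2 and WT 4, with genotype means 0.0062 apart.

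The light chain gene B2m (chromosome 2, 122147686 to 122153083, plus strand) was at 8.67, 8.48 and 8.92 log2 CPM in KO 1, KO 2 and KO 4, against 9.01, 8.58 and 9.30 in WT 1, WT 2 and WT 4. KO was below WT within each number, with differences of -0.34, -0.09 and -0.38, though KO 1 was above WT 2. The mean difference was -0.27 (SE 0.22, limma adjusted p = 0.9999). B2m minus H2-D1 in log2 CPM was 0.10, 0.09 and -0.40 in KO 1, KO 2 and KO 4, against 0.09, -0.0049 and -0.43 in WT 1, WT 2 and WT 4. The libraries numbered 4 stood apart in this ratio in both genotypes, while the genotype means were 0.05 apart.

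Tap1 and Tap2 encode the paired subunits of the peptide transporter. Tap1 (chromosome 17, 34187553 to 34197225, plus strand) was at 2.68, 2.82 and 4.54 log2 CPM in KO 1, KO 2 and KO 4, against 3.64, 3.07 and 4.83 in WT 1, WT 2 and WT 4. Tap2 (chromosome 17, 34203527 to 34216321, plus strand) was at 4.77, 4.78 and 6.67 log2 CPM in KO 1, KO 2 and KO 4, against 5.56, 5.08 and 6.63 in WT 1, WT 2 and WT 4. KO 1 and KO 2 were below WT 1 and WT 2 for both genes, whereas in number 4 only Tap1 was lower in KO. Tap1 had a mean difference of -0.50 (SE 0.65), and within the numbers it was -0.96, -0.25 and -0.28. Without KO 4 the mean difference was -1.10, and without WT 4 it was -0.0093. Tap2 differed by -0.35 (SE 0.64) on average and by -0.79, -0.30 and 0.04 within the numbers, and neither gene passed limma's test (adjusted p = 0.9999 each). Tap2 minus Tap1 stayed between 1.80 and 2.13 on the log2 scale in all 6 libraries.

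Tapbp encodes tapasin, which bridges empty class I molecules to the transporter, and NLRC5 is the class I transactivator. Tapbp (chromosome 17, 33915899 to 33929292, plus strand) was at 7.38, 7.12 and 7.65 log2 CPM in KO 1, KO 2 and KO 4, against 8.0, 7.12 and 7.90 in WT 1, WT 2 and WT 4. KO 2 and WT 2 were level, at a difference of 0.0026, and WT 1 was the highest library. Nlrc5 (chromosome 8, 94434356 to 94527272, plus strand) was at 4.35, 4.43 and 4.90 log2 CPM in KO 1, KO 2 and KO 4, against 4.71, 4.41 and 5.04 in WT 1, WT 2 and WT 4. Its differences within the numbers were -0.36, 0.02 and -0.14, of which only the first exceeded 2 times its counting error. The mean differences were -0.29 (SE 0.27) for Tapbp and -0.16 (SE 0.22) for Nlrc5, neither past limma's test (adjusted p = 0.9999 each).

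**Figure D2:**
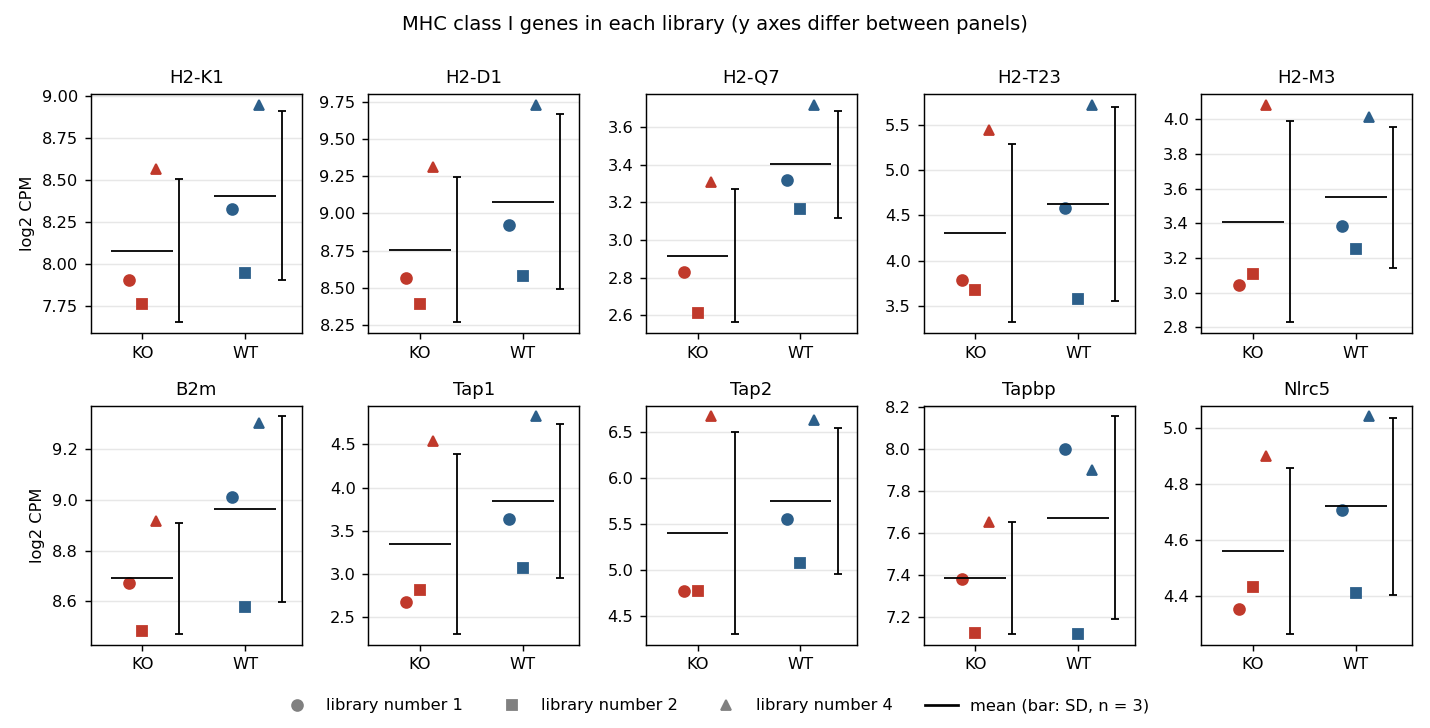
Log2 CPM of the 10 genes in each library, with KO left of WT in every panel, 1 point per library shaped by library number, and the mean with its SD (n = 3). The number 4 libraries (triangles) are the highest of their genotype in every gene but Tapbp in WT, where WT 1 is at 8.0 and WT 4 at 7.90.

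As a group, 0 of the 10 genes passed the threshold for KO against WT, an adjusted p of 0.05 in limma over 11269 genes, and the share of all tested genes that passed was 0% in either direction. At an unadjusted p under 0.05 there were 0 of the 10 and 0.204% of all genes. The KO mean was lower in 10 of 10, where 52.9% of all tested genes had a lower KO mean. KO was below WT within 3 of 3 numbers in 5 of 10 (H2-K1, H2-D1, H2-Q7, B2m and Tap1), against 17.0% of all genes. KO 1 and KO 2 were both below WT 1 and WT 2 in 6 of 10, against 18.2% of all genes. That order together with KO 4 below WT 4 held for H2-K1, H2-D1, H2-Q7 and Tap1, 4 of 10 against 11.1% of all genes. In 0 of 10 were all 3 KO libraries below all 3 WT libraries, a pattern found in 1.59% of all genes. With the number as a block 0 of the 10 passed in limma, as against 0.00887% of all genes. At an unadjusted p under 0.05 that fit had 8 of the 10, all but H2-M3 and Nlrc5, where it had 9.91% of all genes. The fit without the block leaves the differences between numbers in its SE. That SE was 0.32 for H2-K1 and 0.24 for H2-Q7, and with the block it was 0.06 and 0.11.

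The median KO minus WT over the 10 genes was -0.32, beside -0.0071 over all genes tested. Within the numbers 1, 2 and 4 it was -0.46, -0.16 and -0.28, beside -0.0005, -0.0012 and -0.01 over all genes. All 10 genes were lower in KO within number 1, 7 within number 2 and 8 within number 4. The libraries of 1 genotype also differed. All 10 genes were higher in WT 1 than in WT 2, by a median of 0.41, and 6 were higher in KO 1 than in KO 2, by a median of 0.13 over the 10. In 8 of the 10 the gap between WT 1 and WT 2 was larger than the mean difference between KO and WT. The shares of all genes with such gaps were not counted. With 1 library left out the numbers are unevenly spread over the genotypes, and the median was -0.20, -0.15 and -0.59 without KO 1, KO 2 and KO 4, and -0.57 and -0.0039 without WT 2 and WT 4. Without WT 1 it was -0.35, and without both libraries numbered 4 it was -0.31.

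**Figure D3:**
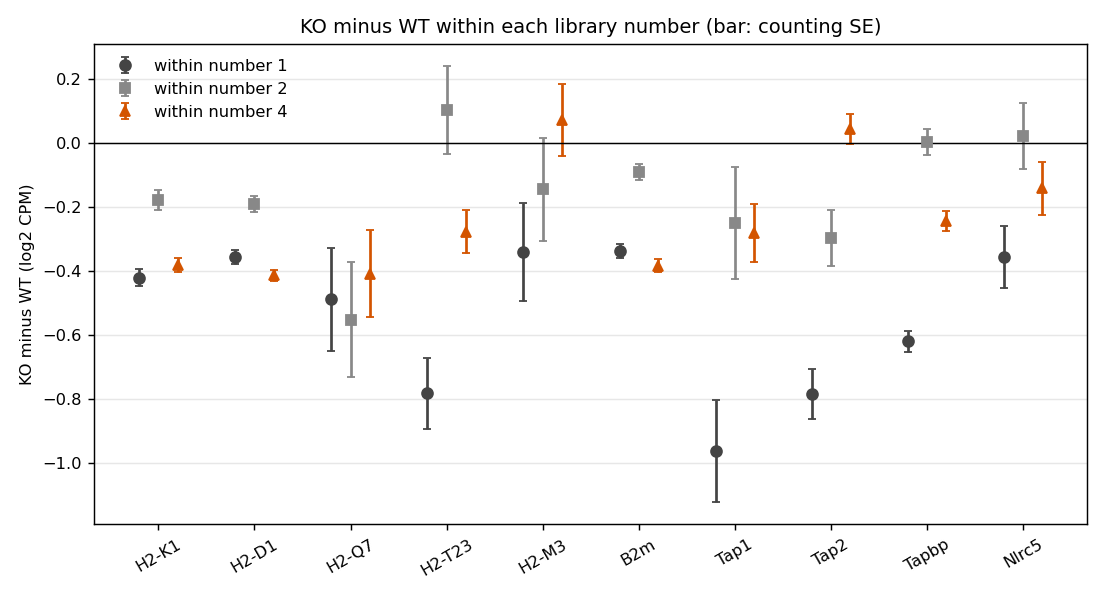
KO minus WT in log2 CPM for each gene within the library numbers 1, 2 and 4, with bars for the counting error (SE) of each difference. H2-K1, H2-D1, H2-Q7, B2m and Tap1 are below 0 at all 3 numbers, and the differences within number 1 reach -0.96 for Tap1.

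The larger contrast in these genes was between library numbers. The column names give the number, and no label says what sets the columns numbered 4 apart. In limma's fit with genotype as a covariate, 9 of the 10 genes rose in the libraries numbered 4 against those numbered 1 and 2, and 0 fell, where 31.8% of all tested genes rose and 33.8% fell. The median difference of the 10 was 0.81, against 0.0031 over all genes. That fit counts KO 4 and WT 4 as separate libraries. Over the 3 means of the KO and WT library of each number, where number 4 is 1 unit assumed to vary like the other 2, 9 of the 10 rose and 0 fell in limma, with 29.4% of all genes higher and 31.1% lower. The summed epithelial markers ran the other way, at 4482, 4529 and 3561 CPM in KO 1, KO 2 and KO 4, and 4582, 5236 and 3862 CPM in WT 1, WT 2 and WT 4, and their part in the result was not tested. All 10 values for KO 4 lay above those of KO 1 and KO 2, and in WT 9 of the 10 did so. The shares of all genes with these orders were not counted.

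The difference between number 4 and the numbers 1 and 2 varied in size among the genes. They are given here from the largest to the smallest, and no test compared the genes with each other. H2-T23, Tap1 and Tap2 rose the most, by 1.67 (SE 0.22), 1.63 (SE 0.16) and 1.6 (SE 0.15) on the log2 scale, which is 3.17, 3.10 and 3.04 times the level of numbers 1 and 2 (adjusted p = 0.00014, 2.5e-05 and 1.8e-05 in limma). H2-D1, H2-M3 and H2-K1 rose by 0.91 (SE 0.10), 0.85 (SE 0.12) and 0.77 (SE 0.10), with adjusted p = 3.5e-05, 0.00017 and 0.00011 in limma. H2-Q7, Nlrc5 and B2m rose by 0.53 (SE 0.12), 0.50 (SE 0.10) and 0.42 (SE 0.11), with adjusted p = 0.0041, 0.0015 and 0.0082 in limma. Tapbp differed by 0.37 (SE 0.19) and did not pass (limma adjusted p = 0.12). Without KO 4, H2-Q7 no longer passed, at 0.47 (limma adjusted p = 0.063), and without WT 4, B2m did not, at 0.34 (limma adjusted p = 0.11). Tapbp passed without WT 1, at 0.56 (limma adjusted p = 0.00035), and with quantile normalization, at 0.52 (limma adjusted p = 0.038), and was at 0.19 without WT 2 (limma adjusted p = 0.17).

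Within KO, number 4 minus the mean of 1 and 2 was 1.70 for H2-T23, 1.80 for Tap1, 1.90 for Tap2 and 0.34 for B2m. Within WT the same differences were 1.64, 1.47, 1.31 and 0.51. The test of whether KO minus WT differed between number 4 and the numbers 1 and 2 called 0 of the 10 genes and 0% of all genes (limma, genotype by number). At an unadjusted p under 0.05 it had 1 of the 10, Tap2, and 3.90% of all genes. For Tap2 the term was 0.58 (SE 0.25, limma adjusted p = 0.997), since KO minus WT was 0.04 in number 4 and -0.79 and -0.30 in numbers 1 and 2. Without WT 2 the same term passed for Tap2 and Tapbp, at 0.83 and 0.51 (limma adjusted p = 2.1e-05 and 0.0041), with WT 1 then the only WT library beside WT 4, and for 2.39% of all genes. Without WT 1 it passed for 0 members and 1.29% of all genes.

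**Figure D4:**
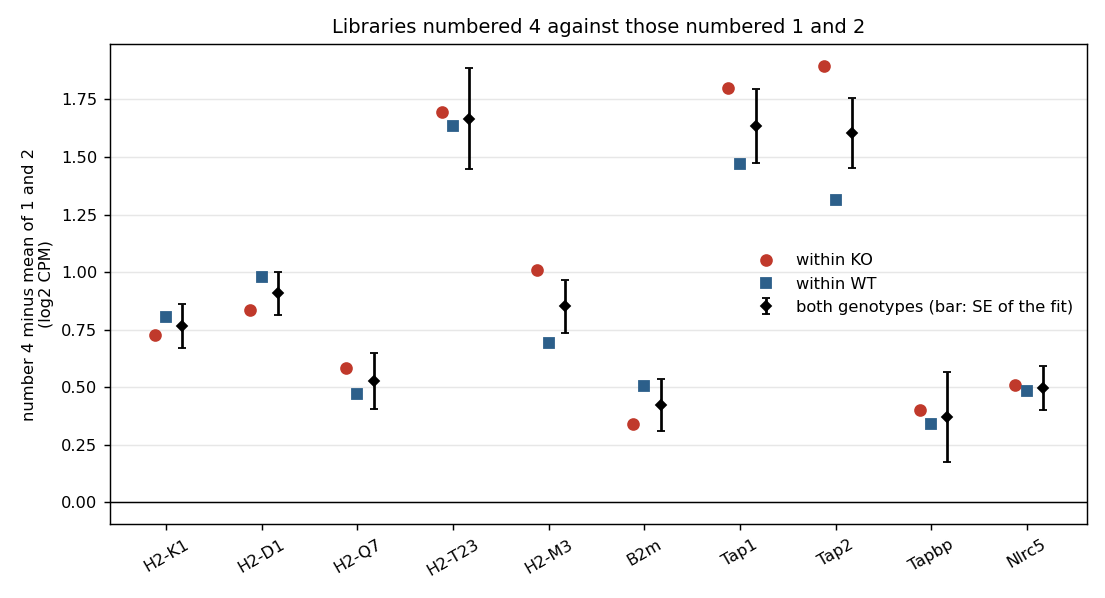
Number 4 minus the mean of numbers 1 and 2 in log2 CPM, within KO (circles), within WT (squares) and over both genotypes (diamonds, with the SE of the fit). H2-T23, Tap1 and Tap2 are at 1.6 to 1.67 over both genotypes, and Tapbp and B2m are at 0.37 and 0.42.

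Related genes were read from lists chosen with earlier results of these data known. Among all tested genes, 52.9% had a lower KO mean and 17.0% were lower in KO within 3 of 3 numbers. In the libraries numbered 4, 31.8% of all genes rose and 33.8% fell, and the counts of each list stand beside these shares. Of the other class I heavy chains 9 of 26 were in the matrix, 0 passed for KO against WT, and 9 of 9 had a lower KO mean, with a median of -0.33. Chosen by the smallest p of this list, H2-T22 differed by -0.35, H2-Q2 by -0.47, H2-Q6 by -0.39 and H2-Q10 by -0.33. H2-Q4, named after its values were seen, was the most abundant of them, at 6.48, 6.33 and 7.38 log2 CPM in KO 1, KO 2 and KO 4, against 7.02, 6.59 and 7.74 in WT 1, WT 2 and WT 4. In the libraries numbered 4, 8 of these 9 rose and 0 fell, with a median of 0.68. Reads may be shared among these genes as described above.

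The immunoproteasome subunit genes Psmb8, Psmb9 and Psmb10 and the activator genes Psme1 and Psme2 shape the peptides that TAP carries. All 5 were in the matrix and 0 passed for KO against WT, with a median of -0.33. Within 3 of 3 numbers 5 of 5 were lower in KO, against 17.0% of all genes. Psmb9, whose promoter window overlaps that of Tap1, was named for this after its values were seen. It was at 1.81, 1.13 and 3.48 log2 CPM in KO 1, KO 2 and KO 4, against 3.26, 2.23 and 3.69 in WT 1, WT 2 and WT 4. KO minus WT was -1.45, -1.09 and -0.21 within the numbers 1, 2 and 4, beside -0.96, -0.25 and -0.28 for Tap1. In the libraries numbered 4 Psmb8 and Psmb9 rose, to 1.64 and 2.79 times the level of numbers 1 and 2 (limma adjusted p = 0.0097 and 0.0035), while Psmb10, Psme1 and Psme2 did not pass.

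A list of other loading and endoplasmic reticulum genes held Tapbpl, Calr, Canx, Pdia3, Erap1, Bcap31, Sar1a and Sec24b, not all of them loading proteins. Of these, 8 of 8 were in the matrix, 0 passed for KO against WT, and the median was -0.09. Tapbpl, the tapasin-related peptide editor, differed by -0.45 (SE 0.59), and the chaperone gene Pdia3, which encodes ERp57, by -0.13 (SE 0.21). Erap1, the aminopeptidase that trims peptides in the endoplasmic reticulum, differed by -0.15 (SE 0.20). The list split between numbers: Tapbpl and Erap1 rose in the libraries numbered 4, to 2.69 and 1.31 times (limma adjusted p = 0.00022 and 0.0098), whereas 6 of 8 fell. Pdia3 and Bcap31 were among these, at 0.714 and 0.800 times (limma adjusted p = 0.00012 and 0.0036). Calr, singled out after its values were seen, fell the most of the list, to 0.373 times (limma adjusted p = 4.3e-07). Of 7 cytosolic peptidases in the matrix 0 passed for KO against WT (median 0.02), and 1 rose and 5 fell in the libraries numbered 4. Of all tested genes 31.8% rose and 33.8% fell there.

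NLRC5 binds promoters together with RFX, NF-Y and CREB family proteins. These 8 genes were all in the matrix, 0 passed for KO against WT, and 1 of 8 had a lower KO mean, with a median of 0.06. Rfxank was at 3.16, 3.06 and 3.39 log2 CPM in KO 1, KO 2 and KO 4, against 2.99, 3.03 and 3.29 in WT 1, WT 2 and WT 4. Among 16 genes of interferon signalling and class I induction 0 passed, 11 had a lower KO mean and the median was -0.03. Irf1, an interferon-induced activator of class I genes, was at 6.13, 6.20 and 7.22 log2 CPM in KO 1, KO 2 and KO 4, against 6.70, 6.41 and 7.24 in WT 1, WT 2 and WT 4, and Ifngr2, a chain of the interferon gamma receptor, differed by -0.21 (SE 0.12). In the libraries numbered 4, 10 of the 16 rose and 1 fell, where 31.8% of all genes rose and 33.8% fell. Irf1 rose to 1.82 times (limma adjusted p = 6.3e-05).

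Polycomb repressive complex 2 is known to silence class I genes in some tumours. Of its 7 genes 0 passed for KO against WT, with a median of 0.03. In the libraries numbered 4, 1 rose and 6 fell, where 31.8% of all genes rose and 33.8% fell. Among those that fell were Eed and Suz12, at 0.755 and 0.814 times (limma adjusted p = 0.00038 and 0.00099). Ezh2 and Ezh1 were named after their values were seen. Ezh2 fell to 0.672 times (limma adjusted p = 2.8e-05), and Ezh1 was the gene that rose, to 2.33 times (limma adjusted p = 5.8e-06). Class II presentation genes were in the matrix for 2 of 10, Cd74 and H2-DMa, which differed by -0.77 (SE 1.01) and 0.25 (SE 0.46) between KO and WT and rose to 5.16 and 2.07 times in the libraries numbered 4 (limma adjusted p = 0.00066 and 0.0015). Of 6 checkpoint ligand genes 0 passed for KO against WT, and Cd274, which encodes PD-L1, was at 1.18, 0.79 and 2.64 log2 CPM in KO 1, KO 2 and KO 4, against 1.73, 1.43 and 2.63 in WT 1, WT 2 and WT 4. Of 6 class I-like genes 0 passed, with a median of -0.16, and Hfe, an iron regulator, differed by -0.60 (SE 0.55). In the libraries numbered 4, 2 of these class I-like genes rose and 3 fell, with a median of -0.19.

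**Figure D5:**
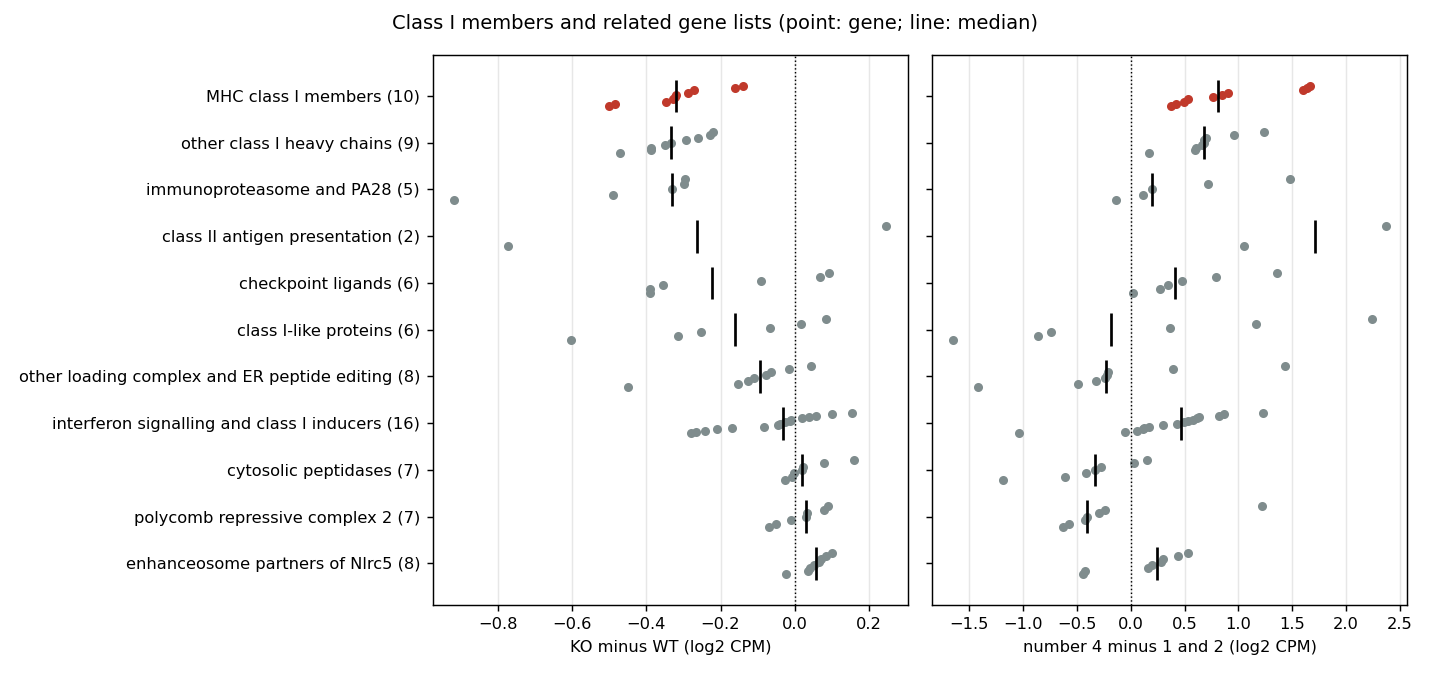
KO minus WT (left) and number 4 minus numbers 1 and 2 (right) in log2 CPM for the 10 members and 10 related lists, 1 point per gene, with a line at each list's median. The members have medians of -0.32 and 0.81, the other heavy chains -0.33 and 0.68, and the partners of Nlrc5 0.06 and 0.24.

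The genes whose profile over the 6 libraries was nearest to the median profile of the members were found by the root mean square difference of mean-centred log2 CPM. The 8 nearest outside the 10 were Idnk, Cd38, Zkscan14, Ddah2, 9530082P21Rik, Trappc6a, Aldoc and Itga1, at differences of 0.06 to 0.09 log2 units. Among the members H2-K1 was the nearest at 0.03 and H2-T23 the farthest at 0.46. Ddah2 was at 4.41, 4.48 and 5.28 log2 CPM in KO 1, KO 2 and KO 4, against 4.96, 4.66 and 5.43 in WT 1, WT 2 and WT 4.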

How the data were processed

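Stranded mRNA libraries were made from 4T1 cell pools, 3 per genotype, per the labels' protocols. The submitters' processing notes name STAR 2.7.3a, Trimmomatic 0.39, edgeR, build GRCm38 and featureCounts (Subread 1.6.4). The deposited values are log2 CPM. The divisor that the values imply was set against the library's read total over the deposited genes. It was below that total for the libraries numbered 1 and 2 (19408634 against 19988206 in KO 1). For those numbered 4 it was above the total (20840627 against 19560010 in KO 4), so a further scaling was applied. How strand, annotation release and scaling were set had no source (not given in the sources used here). Columns 1 and 2 were matched to pools of that number, and the columns numbered 4 to their genotype only.

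From these values, linear CPM above the lowest value were whole multiples of 1 step per library (100% within 0.01 reads), which gave read counts, with a log2 CPM of -4.25 for 0 reads and a limit of 0.144 to 0.173 CPM for a count of 0 (3 reads). Counting errors and that limit cover counting only. Tests used limma 3.58.1 in R 4.3.3, two-sided, with a variance trend and Benjamini-Hochberg adjustment over 11269 genes with a log2 CPM of 0 or more in 3 or more libraries (183 dropped), at a threshold of 0.05. All 10 members passed this filter. Fold changes carry the authors' prior. The text names the 10 members, up to 4 genes per list with the smallest p, and the 8 nearest profiles. The members and lists were chosen with earlier results of these data known. No label says that the pools were grown separately, so p-values measure the spread between these samples, which may be technical.

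Deviations from the genotype mean correlated across genes at 0.744, 0.784 and 0.921 between same-numbered KO and WT libraries, and the numbers were taken to pair them, from these values and not from a label. Differently numbered libraries gave 0.687 (KO 1 with WT 2) and 0.617 (KO 2 with WT 1), and library 1 minus 2 in KO correlated at 0.256 with that in WT, so the pairing of numbers 1 and 2 is weakly marked. Sequence identity used Biopython 1.88 and GENCODE M21. The read recovery and the fits were tested on simulated data. Alternatives covered filters, pseudocount, scaling, the replicate block and leaving out each library.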

Additional observations from a re-analysis of the deposited data

How the results depend on the processing

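Of 180 values of single members for KO against WT under the alternatives, 173 kept their direction and their side of the threshold, and 7 changed direction: H2-D1, H2-T23, H2-M3, Tap2 and Nlrc5 without WT 4, and H2-M3 without KO 1 or KO 2. Over the numbers 136 of 140 were kept. With the library number as a replicate block, 0 of the 10 members passed, with the smallest adjusted p = 0.19 for H2-K1 and H2-D1 in limma, and 1 gene outside the members passed, as did 1 with limma voom on the recovered reads and the block. The block changed no member's call. The summed heavy chains gave an exact p = 0.25 over sign flips of the 3 paired differences, the smallest p that 3 pairs can give, at a difference of -0.32. The members' median was -0.29 after a correction for exon length with the replicate block. That correction, limma voom and the means per number were chosen after seeing the data.

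With 1 library left out, the members' median KO minus WT ranged from -0.59 to -0.0039, and over the numbers from 0.75 to 0.87. With log2(CPM + 1) that second median was 0.78, as a larger pseudocount shrinks low genes. KO minus WT ranged from -0.57 to -0.06 for H2-K1, -0.60 to 0.0040 for H2-D1, -0.68 to -0.33 for H2-Q7, -0.89 to 0.23 for H2-T23, -0.48 to 0.0919 for H2-M3, -0.47 to -0.10 for B2m, -1.10 to -0.0093 for Tap1, -0.98 to 0.0899 for Tap2, -0.57 to -0.12 for Tapbp and -0.33 to 0.0015 for Nlrc5. For genotype by number, with libraries 1 and 2 left out in turn, 0 to 2 members and 0 to 269 genes passed, and the term ranged from -0.27 to 0.11 for H2-K1, -0.31 to 0.0312 for H2-D1, -0.44 to 0.56 for H2-T23, -0.38 to 0.0492 for B2m, -0.38 to 0.51 for Tapbp and -0.12 to 0.17 for Nlrc5. It could not be fitted without KO 4 or WT 4. For number 4, the count of members that rose was 8 to 10 under every alternative run. The planned edgeR fits were not run, since the deposited values are log2. Depth limited H2-Q7, H2-M3 and Tap1 the most.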
